A study of Mus musculus with 10 samples.

Results

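The genes described here encode the machinery that removes the poly(A) tail of an mRNA, removes its cap and degrades what is left. They were chosen by name as subunits of the CCR4-NOT, PAN2-PAN3, decapping, LSM and exosome complexes with the main exonucleases and adaptors, 45 genes in all, and each probe set annotated with exactly 1 of these symbols was taken. This gave 104 of the 45037 probe sets, for 43 genes, and the tested probe set with the highest mean stands for its gene. Cnot1 and Lsm5, the other two, are annotated together with a second gene on every probe set that names them, so no level is given for either. A filter on dim probe sets, applied to the mean over all 10 livers, kept 94 of the 104 probe sets and all 43 genes, among 27022 probe sets and 12821 genes tested in all.

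RNA was measured on 1 array per liver in 10 mouse fetal livers at embryonic day 14.5. Of these, 5 livers were wild type and 5 were Zfp36l2 knockout, each from a different fetus, and both genotypes were of a mixed b6 and 129 background. The labels do not describe the targeted allele, the sex of the fetuses or their litters. Values are background-subtracted intensities, quantile-normalized here. They compare livers for 1 probe set, and between genes they only tell bright probe sets from dim ones.

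Shortening of the poly(A) tail is usually the first step of mRNA decay. The PAN2-PAN3 enzyme trims long tails, and the CCR4-NOT complex, with a pair of different nucleases on a large scaffold, removes most of the rest. The message is then either decapped by DCP2 and degraded from its 5' end by XRN1, or degraded from its 3' end by the exosome. Zfp36l2 belongs to the tristetraprolin family, whose zinc fingers bind AU-rich elements in 3' untranslated regions and whose carboxy terminus binds the CNOT1 scaffold, so that bound messages are deadenylated. The comparison therefore asks whether transcripts of this machinery differ when one of the proteins that recruit it is missing.

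Zfp36l2 itself checks the labels. Its intensities were 396, 397, 596, 391 and 389 in wild type replicates 1 to 5 and 108, 82.3, 109, 103 and 108 in knockout replicates 1 to 5. Every knockout liver lay far below every wild type liver, and the means, 434 ± 90.98 and 102 ± 11.3 (SD over 5 livers), differ by -2.08 ± 0.13 on the log2 scale (SE), a 4.21-fold fall (limma adjusted p = 1.47e-06). As the mean of all its tested probe sets the difference was -1.16 (limma adjusted p = 0.00846). Its paralog Zfp36l1 lay at 579, 625, 647, 769 and 798 in wild type and 897, 1056, 897, 831 and 985 in knockout livers, with no overlap. That difference of 0.46 ± 0.09 missed the threshold (limma adjusted p = 0.0584) and passed it without wild type replicate 5, at 0.51 (limma adjusted p = 0.0132), and in 4 further settings. Zfp36, the founding member of the family, averaged 51.6 and 73.96 (limma adjusted p = 0.385).

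The livers were of the labelled tissue, since the hepatoblast genes Afp and Alb and the erythroid gene Slc4a1 were bright, at means of 16358, 15407 and 7929 in wild type livers. These are bulk samples, in which fewer cells of a type and less RNA per cell cannot be told apart. Some markers of other cell types differed between the genotypes. The 6 tested megakaryocyte markers summed to 3502 to 5111 in wild type and 1409 to 2355 in knockout livers, and Pf4, Ppbp and Itga2b were called lower. Such a sum of intensities is weighted to the brightest markers of its list. All 7 macrophage markers and 5 of 7 neutrophil-lineage markers had positive differences, as did all 5 endothelial markers, with none called. At an unadjusted p under 0.05, 4 macrophage, 5 neutrophil-lineage and 2 endothelial markers were higher (5.94% of all genes were). So was the hepatoblast marker Hnf4a, in a list with 2 of 5 differences positive. B-lymphoid differences were positive for 4 of 5 markers, none at that p. Of the 6 erythroid markers 5 had negative differences, 4 of them at an unadjusted p under 0.05 (5.44% of all genes were lower at that p), with none called. The erythroid list summed to 25629 to 33503 in wild type and 25514 to 29280.4 in knockout livers. Its erythropoietin receptor gene Epor was lower without overlap, as 1.43% of all genes were. The Epor means were 1209.6 ± 67.9 and 906 ± 200.2 (SD over 5 livers, limma adjusted p = 0.151). The 2 T cell markers with a probe set were too dim to be tested. The part of these cell types in the machinery's values was not tested. Wild type replicate 5 had the lowest value for many of the machinery genes, and the results that rest on it are given with and without it.

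None of the 43 machinery genes was called different between the genotypes, where called means a Benjamini-Hochberg adjusted p under 0.05 over all tested probe sets. Over all genes limma called 42 of 12821, or 0.328%, of which 20 were higher (0.156%) and 22 lower (0.172%) in knockout livers, or 37 and 20 where arrays were scaled to the same median. The smallest adjusted p among the 43 genes was 0.326, and none of their 94 probe sets passed (0.211% of all tested probe sets did). At an unadjusted p under 0.05 there were 3 genes, or 6.98% against 11.4% of all tested genes. Cnot8 and Btg1 had higher knockout means (5.94% of all genes did at that p) and Pabpc4 a lower one (5.44%). The higher count fell to 1 when wild type replicate 1 or wild type replicate 4 was left out. The lower count was 0 when wild type replicate 2, wild type replicate 3, knockout replicate 1 or knockout replicate 3 was left out, and 2 without wild type replicate 5. Among genes with a mean intensity of at least 100, the shares were 7.32% of 41 machinery genes and 15.2% of 6752 genes. No machinery gene had genotypes that did not overlap, where 2.76% of all tested genes did. Leaving out 1 liver gave such genes in 5 cases. Exosc5 was lower without wild type replicate 3 (1.95% of all genes were, in that setting), and Dcp1a and Pabpc4 without knockout replicate 4 (2.04%). Cnot8 was higher without knockout replicate 2 (1.93%) and Cnot7 without knockout replicate 5 (1.97%). The fifth, without wild type replicate 5, gave 5 genes, which are described further on.

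The differences were small in both directions. Of the 43 genes 21 had a positive difference (50.1% of all tested genes did), and the median log2 difference was -0.0052 with a range of -0.32 to 0.39, beside a median of 0.00018 over all tested genes. The median size of a difference, without its sign, was 0.0957 for these genes and 0.142 for all, of which a larger share is dim. What the data can say about each gene is given by the 95% interval of its difference. For 40 of the 43 genes this interval lay within a 1.5-fold change either way, as it did for 51.3% of all tested genes. Dim probe sets have wide intervals: among genes with a mean intensity of at least 100 it held for 40 of 41 machinery genes and for 88.2% of the 6752. The exceptions were Parn, Dcp1b and Xrn1, of which Dcp1b and Xrn1 had the lowest mean intensities of the set.

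**Figure D1:**
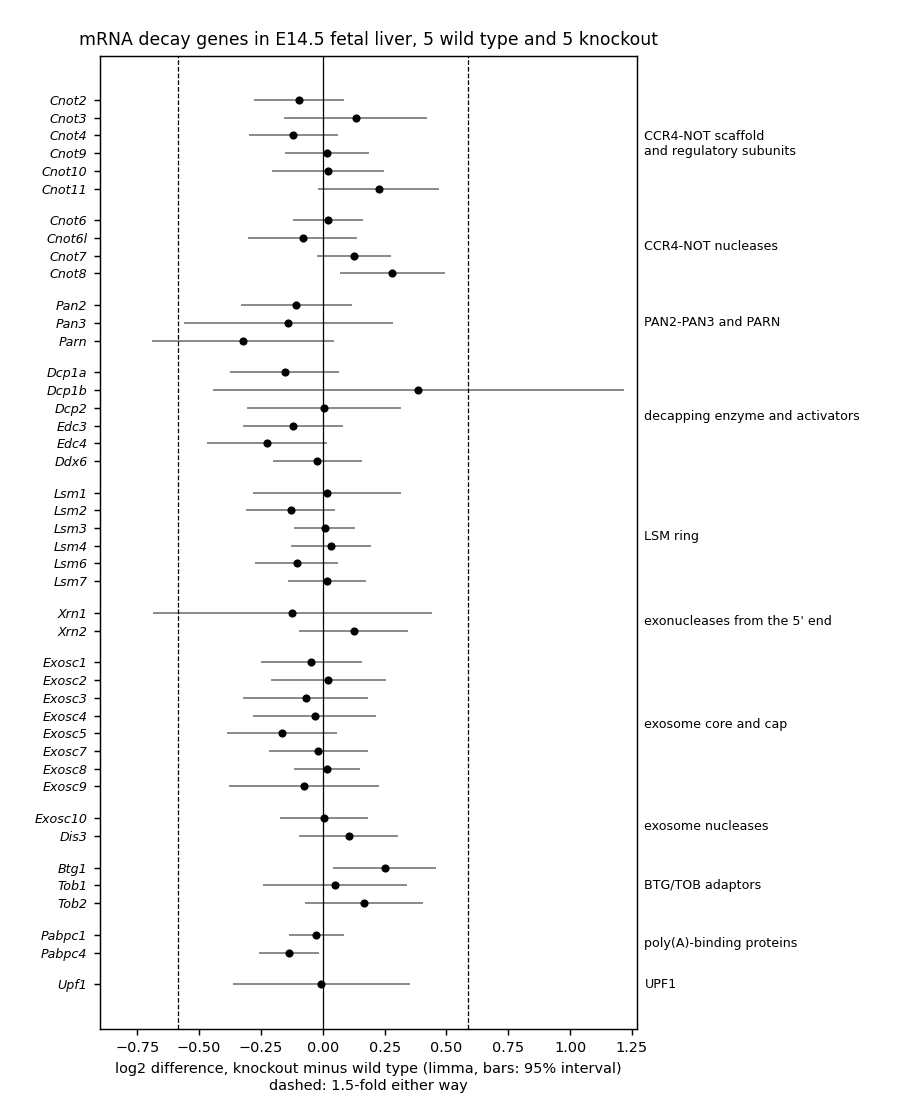
Log2 difference between knockout and wild type livers for each of the 43 genes, grouped by role, with its 95% interval from limma on the horizontal axis. Dashed lines mark a 1.5-fold change either way: 40 intervals lie between them, and those of Parn, Dcp1b and Xrn1 do not.

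In the CCR4-NOT complex, the scaffold and regulatory subunits carried no called difference. They run from -0.12 for Cnot4, a ubiquitin ligase that binds the complex, to 0.23 for Cnot11, which joins Cnot10 in a module at the scaffold's amino terminus. Cnot11 intensities were 286, 299.5, 302, 316 and 264 in wild type and 281, 402, 281, 412 and 363 in knockout livers. Knockout replicates 2, 4 and 5 lay above every wild type liver, while knockout replicates 1 and 3 lay within their range (limma adjusted p = 0.565, interval -0.02 to 0.47). Its 2 other tested probe sets, both dimmer, had differences of -0.23 and -0.05.

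Cnot2 and Cnot3 form the module that stabilises the complex around the scaffold's carboxy terminus. The Cnot2 probe set that stands for the gene lay at 373, 410.5, 321, 413 and 343 in wild type and 320.1, 360.3, 339, 351 and 365 in knockout livers, which overlap, and the difference was -0.10 ± 0.09 (limma adjusted p = 0.787). A dimmer Cnot2 probe set lay at 272, 309, 257, 267 and 246 in wild type and 246, 242, 212, 228 and 234 in knockout livers. These do not overlap: the lowest wild type and highest knockout livers nearly touch. Its difference was -0.21 ± 0.09 (limma adjusted p = 0.438). The two-sided exact permutation p of 0.00794 is the minimum for 10 livers split evenly. Any probe set without overlap has this value, so it adds nothing to the lack of overlap. The other two tested Cnot2 probe sets had differences of -0.11 and 0.10, so the signs disagree. Differences were 0.13 for Cnot3, 0.02 for Cnot10 and 0.02 for Cnot9, a subunit that binds silencing proteins of the GW182 family. The Cnot9 interval of -0.15 to 0.19 is among the narrower of the set.

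The nucleases of CCR4-NOT come in paralog pairs, Cnot7 or Cnot8 in one position and Cnot6 or Cnot6l in the other. Cnot8 had the smallest p of all 43 genes. Its intensities were 201, 202, 176, 208 and 231 in wild type and 244, 223, 233, 263 and 273 in knockout livers. Only wild type replicate 5 lay above a knockout liver, that of replicate 2. The difference was 0.28 ± 0.10 (limma adjusted p = 0.326, and 0.167 to 0.541 over the 22 alternative settings), with an interval of 0.07 to 0.49. As a single value its two-sided exact permutation p was 0.0159, and 4.66% of all tested genes had a smaller limma p. The second Cnot8 probe set had a difference of 0.14 ± 0.12, with overlapping genotypes.

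Cnot7, its paralog, lay at 488, 475, 510.01, 509.6 and 476 in wild type and 614, 520.3, 529, 536 and 489.7 in knockout livers. All but knockout replicate 5 lay above the wild type range. The difference was 0.13 ± 0.07 (limma adjusted p = 0.608), and the dimmer Cnot7 probe sets had differences of 0.27 and 0.36. All 5 tested probe sets of this pair were thus positive, though none passed. With arrays scaled to the same median, which put the median difference of all genes at 0.0621, Cnot7 had genotypes that did not overlap, higher in knockout livers, as did Tob2 (2.28% of all genes in that setting). There 5 of the 43 genes, Cnot7, Cnot8, Cnot11, Btg1 and Tob2, had a higher knockout mean at an unadjusted p under 0.05, beside 9.24% of all genes.

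The other pair had differences nearer 0. Cnot6 lay at 810.1, 979.7, 963, 1042 and 1017 in wild type and 955, 988, 971, 977 and 975 in knockout livers, where wild type replicate 1 was the low one. Its difference of 0.02 ± 0.07 came with differences between -0.01 and 0.06 in all 4 of its tested probe sets. Cnot6l had a difference of -0.08 ± 0.10, with an interval of -0.30 to 0.14. Whether the paralogs of either pair differ from each other in response was not tested.

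**Figure D2:**
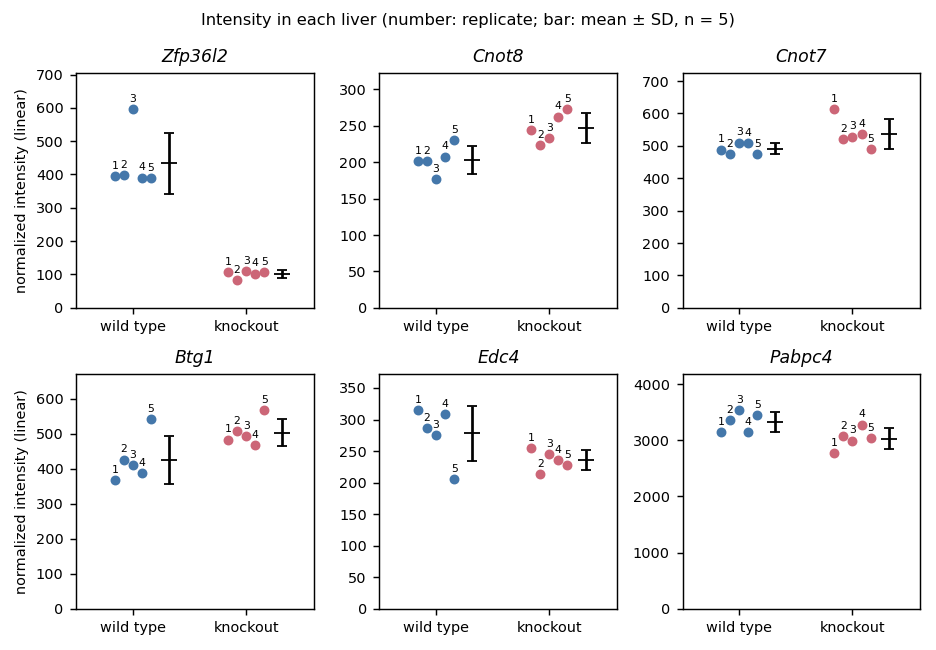
Normalized linear intensity of Zfp36l2, Cnot8, Cnot7, Btg1, Edc4 and Pabpc4 in each of the 10 livers, numbered by replicate, with the mean and SD of each genotype. Zfp36l2 separates the genotypes widely, and in the other five at least 1 liver of one genotype lies within the range of the other.

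The deadenylases outside CCR4-NOT were Pan2 and Pan3, the nuclease and its adaptor, and Parn, a nuclease that binds the cap and also trims small nuclear and nucleolar RNAs. All 3 had negative differences and none was called. Parn had the lowest difference of the 43 genes, -0.32 ± 0.17 (limma adjusted p = 0.592, interval -0.69 to 0.05). Its intensities were 141, 154, 163, 132 and 84.02 in wild type and 119, 103, 95.8, 105 and 104 in knockout livers. Wild type replicates 1 to 4 lay above every knockout liver, and wild type replicate 5 lay below all of them. The other tested Parn probe set had a difference of only -0.08. Pan2 had a difference of -0.11 ± 0.11. Pan3 was variable within each genotype, at 332, 285, 241, 252 and 408 in the wild type and 227, 358, 341, 161 and 324 in the knockout livers, with SDs of 0.31 and 0.49 on the log2 scale. Its other three tested probe sets had differences of 0.12, 0.11 and 0.01, opposite in sign to the first.

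Decapping is done by Dcp2, which is activated by Dcp1a or Dcp1b and held in an assembly by Edc3, Edc4 and the helicase Ddx6. Of these 6 genes 4 had negative differences and none was called. Edc4, the large scaffold of this assembly, lay at 315, 286, 275, 308 and 206 in wild type and 255, 214, 245, 236 and 227 in knockout livers. Here too wild type replicates 1 to 4 lay above the knockout livers and wild type replicate 5 lay below them. The difference was -0.23 ± 0.11 (limma adjusted p = 0.556, interval -0.47 to 0.02). Ddx6 lay at 563, 623, 707, 564 and 633 in wild type and 562, 609, 683, 531 and 660.3 in knockout livers, with wide overlap, and its difference was -0.02 ± 0.09.

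Dcp2 had means of 332 ± 70.1 and 329.9 ± 54.8 (SD over 5 livers) in wild type and knockout, and the lowest liver was wild type replicate 5. The difference of 0.0033 had an interval of -0.31 to 0.31. A second Dcp2 probe set, at means of 18.4 and 28.5, is too near the floor of 16 for its difference to be read. Dcp1a had a difference of -0.15 ± 0.10 (limma adjusted p = 0.679) and Edc3 of -0.12 ± 0.10 (limma adjusted p = 0.745). The genotypes overlapped for both. Dcp1b, the second activator, was dim and variable: it ran from 16.1 to 91.4 in wild type and from 43.7 to 88.96 in knockout livers. Its difference of 0.39 ± 0.39 had the widest interval of the set, -0.45 to 1.22.

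The LSM proteins form a ring of 7 that binds the shortened 3' end and recruits the decapping enzyme, where Lsm1 marks the cytoplasmic ring and the others are shared with the nuclear one. All 6 measured genes had intervals within a 1.5-fold change. The range of differences was -0.13 for Lsm2 to 0.03 for Lsm4, the narrowest range among the groups of 3 or more genes. Lsm3 lay at 1242, 1169, 1106, 1171 and 1079.7 in wild type and 1247, 1114, 1103, 1189.9 and 1141 in knockout livers. The genotypes cover nearly the same range, and the difference of 0.01 had an interval of -0.12 to 0.13. Lsm6, at -0.11 ± 0.08, was the one LSM gene with several tested probe sets, and the 4 of them ran from -0.11 to 0.18. Differences of 0.02 were found for Lsm1 and Lsm7, with intervals of -0.28 to 0.32 and -0.14 to 0.18.

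Degradation from the 5' end is carried out by Xrn1 in the cytoplasm and Xrn2 in the nucleus. Xrn2 lay at 226, 268, 244, 232 and 218 in wild type and 259, 289, 285, 211 and 256 in knockout livers. The difference was 0.12 ± 0.10, while a second probe set of nearly the same brightness gave -0.14 ± 0.10, so its direction is not settled. Xrn1 was dim, at means of 66.5 ± 19.5 and 60.8 ± 16.4 (SD over 5 livers), and its interval of -0.69 to 0.44 leaves room for more than a 1.5-fold fall. The other tested Xrn1 probe set had the opposite sign, at 0.37.

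The exosome is a barrel of 9 proteins that do not cut RNA themselves, joined by the nucleases Dis3 and Exosc10. All 8 measured core and cap genes and both nucleases had intervals within a 1.5-fold change. The remaining barrel gene, Exosc6, was not among the genes chosen. It was listed with the further decay genes and was too dim to be tested. Core and cap differences ran from -0.16 for Exosc5 to 0.02 for Exosc2, with 6 of 8 negative. Exosc8 lay at 1253, 1192, 1164, 1164 and 1036 in wild type and 1288, 1127, 1116, 1165 and 1181 in knockout livers. Wild type replicate 5 was the lowest liver and the rest overlap widely, and the difference was 0.02 ± 0.06 with an interval of -0.12 to 0.15. Exosc5 lay at 400.5, 400.2, 347, 467 and 419.5 in wild type and 279, 388, 389.6, 369 and 396 in knockout livers. Knockout replicate 1 stood well below the rest.

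The remaining core and cap genes were closer to 0, at -0.05 for Exosc1, -0.07 for Exosc3, -0.03 for Exosc4, -0.02 for Exosc7 and -0.08 for Exosc9. Exosc9 ran from 259.96 to 400.4 in wild type livers. In knockout livers it ran from 269.5 to 296 except in replicate 3, at 426. Exosc10, the nuclear exosome nuclease, lay at 347, 367, 389, 358 and 328 in wild type and 336, 399, 344, 395 and 325 in knockout livers and differed by 0.01. Dis3, the processive nuclease of the barrel, differed by 0.10 ± 0.09 (limma adjusted p = 0.791). No exosome gene came near the threshold.

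Btg1, Tob1 and Tob2 belong to one family of antiproliferative adaptors that bind the CNOT7 and CNOT8 nucleases. For all 3 the probe set that stands for the gene had a positive difference, and none was called. Btg1 lay at 367, 426, 411, 387 and 542 in wild type and 484, 508, 493, 467 and 569 in knockout livers. Every knockout liver lay above wild type replicates 1 to 4, and wild type replicate 5 lay within the knockout range. Its difference was 0.25 ± 0.10 (limma adjusted p = 0.393, and 0.0758 to 0.72 over the alternatives), with an interval of 0.04 to 0.46. Without wild type replicate 5 the genotypes did not overlap and the difference was 0.34 (limma adjusted p = 0.0758). A second Btg1 probe set had a difference of 0.15 ± 0.13.

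Tob1 differed by 0.05 ± 0.14, with knockout replicates 2, 3 and 5 high and 1 and 4 low. Tob2 lay at 165, 157, 158, 163 and 133 in wild type and 172, 187, 192, 159 and 161 in knockout livers, where wild type replicate 5 was low. Its difference was 0.17 ± 0.11, but the 4 other tested Tob2 probe sets were all negative, from -0.30 to -0.10. The sign for Tob2 therefore depends on the probe set.

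The poly(A)-binding proteins coat the tail that deadenylases remove. Pabpc1, the main cytoplasmic one, lay at 9926, 11151, 11097, 10593 and 11097 in wild type and 10131, 11097, 10903, 10593 and 10131 in knockout livers. The repeated values come from quantile normalization, which gives probe sets of the same rank the same value, and the difference was -0.03 ± 0.05 with an interval of -0.14 to 0.08. Pabpc4 lay at 3146, 3363, 3540.00, 3151 and 3453 in wild type and 2772, 3071, 2993, 3279 and 3032 in knockout livers. Knockout replicate 4 reached into the wild type range and the other knockout livers lay below it. Its difference of -0.14 ± 0.06 (limma adjusted p = 0.428, and 0.249 to 0.885 over the alternatives) amounts to a 1.10-fold lower level.

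The second Pabpc4 probe set gave 2602, 2696, 2757, 2572 and 2587 in wild type and 2426, 2442, 2380.5, 2507 and 2421 in knockout livers. These do not overlap, at a difference of -0.12 ± 0.05 (limma adjusted p = 0.399). Here too the two-sided exact permutation p of 0.00794 follows from the lack of overlap and is no further evidence. This Pabpc4 probe set and the Cnot2 probe set above were the 2 of 94 tested machinery probe sets whose genotypes did not overlap. Both were lower, beside 2.27% of all tested probe sets without overlap. Upf1, the helicase of nonsense-mediated decay, lay at 117, 83.4, 119, 145 and 104 in wild type and 116, 104, 139, 105 and 96.6 in knockout livers, and differed by -0.01 ± 0.17.

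Probe sets of the same gene often disagreed in sign. Of the 43 genes 25 had several tested probe sets, and in 16 of them the signs were mixed. Both Cnot8, all 3 Cnot7, both Btg1, both Dcp2 and both Exosc8 probe sets were positive, and both Pabpc4, all 3 Ddx6, both Parn and both Dcp1a probe sets were negative. Among all 94 tested probe sets 44 were positive and 50 negative. Of these, 9 carry the x mark and 5 the s mark, which Affymetrix gives to probe sets whose probes can bind more than 1 transcript. The probe sets that stand for Cnot2, Cnot7, Pan3, Parn, Lsm6, Tob2 and Pabpc4 are among them. Leaving out all such probe sets gave 0 machinery genes called (0.386% of all genes were), and Pabpc4 was then lower without overlap (1.42% of all genes were).

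**Figure D3:**
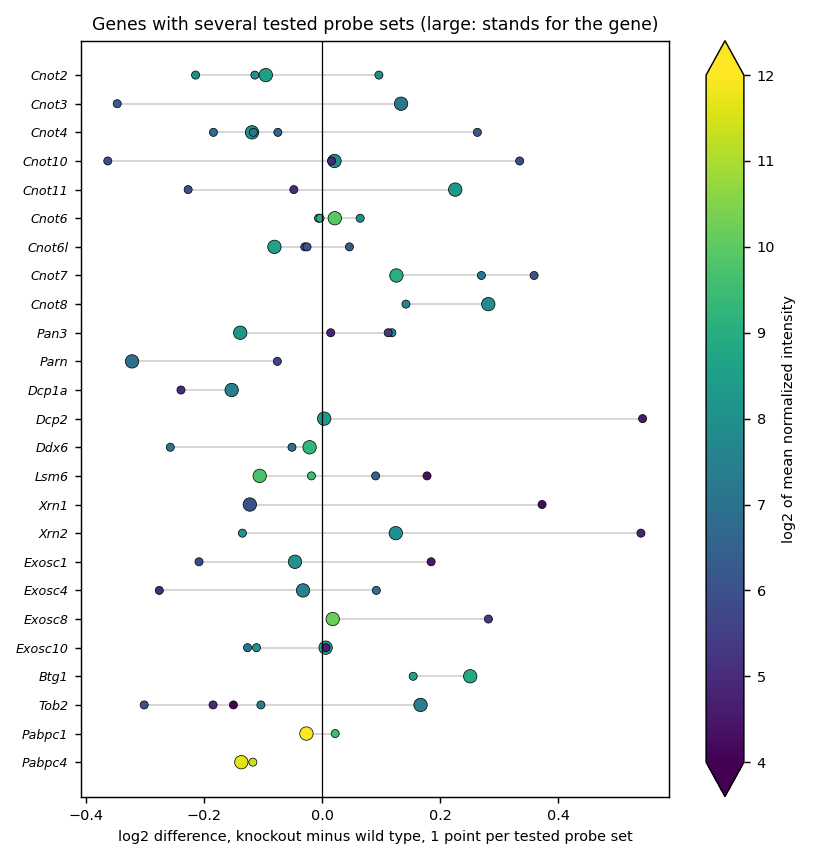
Log2 difference of each tested probe set for the 25 genes with several, coloured by the log2 of its mean intensity, with the probe set that stands for the gene drawn larger. Points of 16 genes lie on both sides of 0, and the widest spread is among dim probe sets.

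The SD between livers of a genotype was 0.144 on the log2 scale for the median machinery gene and 0.281 for the median tested gene. A larger share of all tested genes is dim, and the SD was not compared at like brightness. Among the machinery genes it was lowest for Pabpc1, at 0.0662, and highest for Dcp1b, at 0.747. Next came Xrn1, at 0.43, and Pan3, at 0.411.

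One liver stood apart for this machinery. Wild type replicate 5 had the lowest value of all 10 livers for 18 of the 43 genes, or 41.9%, where the other livers had between 1 and 5 each. Over the 6752 genes with a mean intensity of at least 100 it had the lowest value in 15.9%. That was also the largest share of any liver, beside 7.24% to 13.6% in the others. The median over the 43 genes of the log2 value minus the gene's mean was -0.11 in this liver, and ran from 0.02 to 0.05 in the other wild type and from -0.05 to 0.06 in the knockout livers. The low genes included Dcp2, Edc4, Parn, Lsm1, Lsm4, Exosc2 and Exosc8, while Pan3 and Xrn1 had their highest value in it. That liver was singled out after its values were seen.

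Several marker lists were high in it. The 7 neutrophil-lineage markers summed to 18119 in wild type replicate 5 and to 4093 to 11236 in the other wild type livers, and the 7 macrophage markers to 2996 and to 1909 to 2310.1. In the knockout livers these sums ran from 9003 to 17207 and from 2517 to 3312. The erythroid sum of 33503 was the highest of all 10 livers, and its sums for hepatoblast, B-lymphoid and endothelial markers, at 60653, 270.4 and 916, were the highest among the wild type livers. The part of these cell types in the low values was not tested. Without this liver 11 of the 43 genes had a positive difference (48.9% of all tested genes did), and 5 had genotypes that did not overlap. Btg1 and Cnot8 were higher, where 2.68% of all tested genes were higher without overlap, and Parn, Edc3 and Edc4 were lower, where 2.32% were. Limma still called none of the 43, with adjusted p-values of 0.0758 for Btg1, 0.142 for Edc4, 0.163 for Parn, 0.208 for Cnot8 and 0.554 for Edc3, while 115 of 12815 genes were called, or 0.897%.

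**Figure D4:**
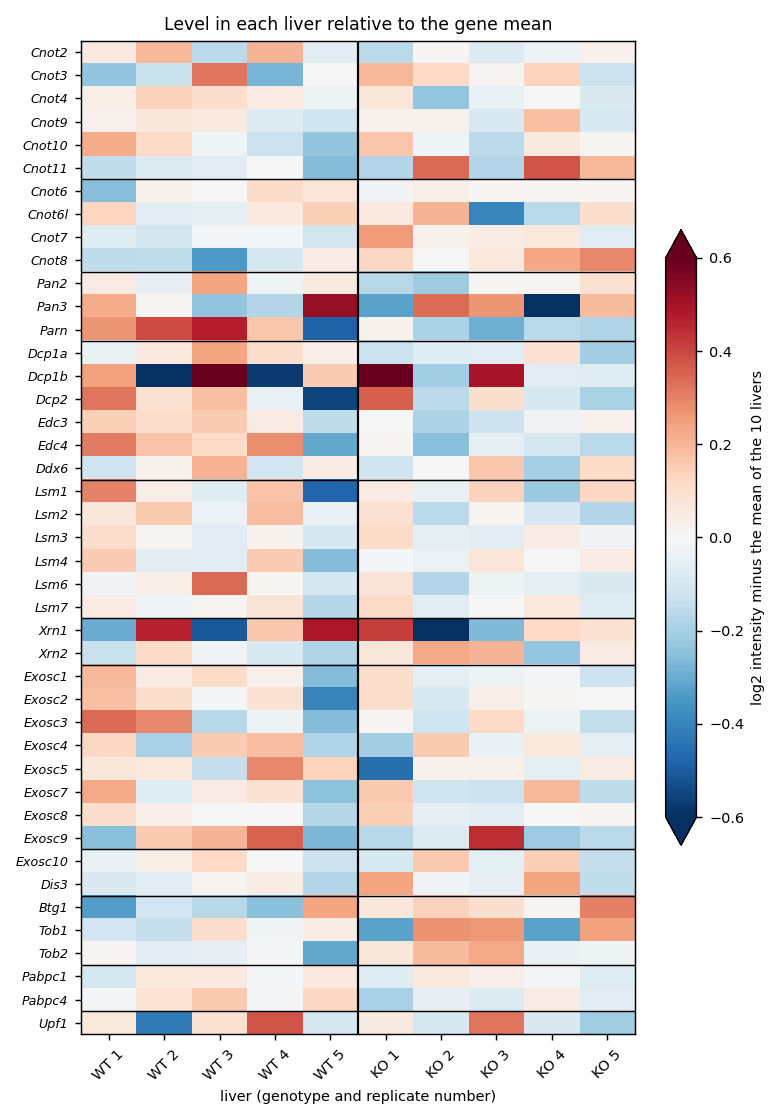
Log2 intensity of the 43 genes in each liver minus the gene's mean over the 10 livers, with rows grouped by role and a vertical line between the genotypes. The column of wild type replicate 5 is mostly blue, with the lowest value of 18 genes, and no block of rows separates the genotypes.

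Other factors that act with this machinery gave the same count. Of 52 further decay genes, chosen by function, 46 had a tested probe set, and limma called none of them (0.328% of all genes). At an unadjusted p under 0.05 there were 1 higher and 4 lower, beside 5.94% and 5.44% of all genes. Genotypes did not overlap for 2 of the 46, both lower, as for 1.43% of all genes. Eif4enif1, which links the cap-binding protein eIF4E to decapping, lay at 569, 584, 611, 617 and 550.4 in wild type and 502, 500.3, 549, 535 and 499.5 in knockout livers. Every knockout liver lay below every wild type liver, if narrowly, and the difference was -0.18 ± 0.06 (limma adjusted p = 0.324). Zcchc8, a subunit of the nuclear exosome targeting complex, lay at 297, 301, 312, 309 and 294 in wild type and 293, 272, 289.7, 281 and 283 in knockout livers. It also had no overlap, and the difference was -0.10 ± 0.07 (limma adjusted p = 0.734).

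Of the 46 genes 15 had a positive difference, with a median of -0.04, where 50.1% of all genes were positive. With arrays scaled to the same median, which moved all genes upward, 27 were positive, where 62.2% of all genes were. By role, differences were positive for 3 of 10 deadenylases and cofactors, 4 of 9 decapping partners, 4 of 13 exosome partners, 1 of 4 nonsense-mediated decay factors and 3 of 10 silencing proteins and other adaptors. In the last group Pum2, which binds a short motif in 3' untranslated regions, differed by -0.13 and the Argonaute Ago2 by -0.17, neither of them called. The one gene on the higher side at an unadjusted p under 0.05 was the exosome cofactor Mphosph6, at 0.25.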

How the data were processed

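Each array has, in the deposited table, 1 linear-scale intensity for every probe set. Values at or below 0 made up 21.5%, so the authors had subtracted a background; the software is not given in the sources used here. Per the labels' protocols, 1 array per liver was hybridised with biotin-labelled cRNA from a one-cycle kit. Array medians differed 1.28-fold, so values were quantile-normalized, those under 16 were set to 16, and log2 was taken. A floor near 0 would have inflated differences of dim probe sets. Probe sets with a mean log2 value above the 40th percentile entered a two-sided limma test (version 3.58.1, R 4.3.3) of genotype alone, with lmFit and a trended eBayes. P-values were adjusted by Benjamini-Hochberg over the 27022 probe sets. A gene is represented by its tested probe set of highest mean log2. Intervals and SEs are limma's, and SDs are over 5 livers on the linear scale unless said otherwise. On arrays the number of livers limits the precision.

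Gene names come from the platform annotation: 34945 probe sets carry 1 symbol, 932 several and 9160 none. Given in every liver were Zfp36l2 and the highest-mean gene of each role, Btg1 among them. So was any of the 43 genes called, without overlap or at an unadjusted p under 0.01. Other decay factors called or without overlap were given too. Cnot8, Cnot7, Pabpc4, Parn, Edc4, Cnot11, Exosc5, Tob2 and the extra probe sets were added after values were seen. The genes, lists and floor were chosen with earlier results of these data known. Alternatives covered normalization, floor, filter, variance model, weights, probe-set choice, each liver left out and the replicate number as a block. The procedure was also run on simulated data, and the share of true differences it recovered is not given here. Figures were drawn with matplotlib 3.10.9.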

Additional observations from a re-analysis of the deposited data

Results flagged for a closer look

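Within each genotype, a liver was compared with its nearest neighbour by Dixon's ratio for the 43 genes and Zfp36l2. Of 88 groups of 5 livers, 5 had a liver apart, where chance gives about 1 in 20, or 4.4. Exosc5 was low in knockout replicate 1 (log2 8.13, nearest 8.53). Exosc9 was high in knockout replicate 3 (8.73, nearest 8.21). Tob2 was low in wild type replicate 5 (7.05, nearest 7.30). Zfp36l2 was high in wild type replicate 3 (9.22, nearest 8.63) and low in knockout replicate 2 (6.36, nearest 6.68).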

How the results depend on the processing

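No machinery gene was called in any of the 22 alternative settings, and their lowest adjusted p was 0.0758. Between 38 and 41 genes had intervals within a 1.5-fold change. Of the 43 genes 14 kept 1 sign throughout, 5 positive and 9 negative; the other 29 changed sign somewhere. Zfp36l2 was called lower in every setting, with -1.16 as the mean of its probe sets furthest from the rest. Counts of genes at an unadjusted p under 0.05 on the higher and lower side moved from 2 and 1 to 5 and 0 with median scaling and to 1 and 0 without trend; the lower count was 0 for the values as deposited, 2 without the filter and 3 with array weights. Median scaling also gave 2 genes higher without overlap, a median difference of 0.066 and 27 positive other decay factors; it moved all genes upward, to a median of 0.0621, with 62.2% positive and 9.24% higher at an unadjusted p under 0.05. Without s and x probe sets, a setting added after the data were seen, 1 gene (Pabpc4) was lower without overlap. With only means of at least 100, 8 genes had mixed signs. Leaving out single livers gave 1 to 3 genes on the higher and 0 to 2 on the lower side, 0 to 2 higher and 0 to 3 lower without overlap (1.78% to 2.68% and 1.82% to 2.55% of all genes), and 11 to 23 positive differences (48.9% to 50.9%). Zfp36l1 was called with median scaling (0.53), array weights (0.46), the replicate block (0.46) and without s and x probe sets (0.46), and its difference was 0.40 to 0.51 without single livers. The cause of these shifts was not tested. Livers of the same replicate number were not shown to be paired: their deviations from the genotype mean correlated at 0.0285 to 0.13. Of 10 livers 7 correlated best with their own number, a hint from the data only. Deviations from a genotype's own mean correlate less within that genotype by construction, so the best partner tends to lie in the other one. That bears on the partner's genotype and does not say which number the partner has. Why 7 livers correlated best with their own number was not tested. With the replicate block 121 genes were called but 0 of the 43. At an unadjusted p under 0.05 there were then Btg1, Cnot8 and Cnot11 on the higher side and 2 genes on the lower side. The unadjusted limma p was 0.0040 for Btg1 (limma adjusted p = 0.168) and 0.0098 for Cnot8 (limma adjusted p = 0.252). Signal over background limits Dcp1b and Xrn1 most.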
